A study of Mus musculus with 16 samples.

Results

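The set of 10 genes of transforming growth factor beta (TGF-beta) and bone morphogenetic protein (BMP) signalling in blood vessels was followed in whole mouse retina: the ligands Tgfb1, Tgfb2 and Bmp4, the endothelial receptors Eng and Acvrl1, the inhibitory Smads Smad6 and Smad7, and the target genes Id1, Id2 and Id3. They were chosen by name, with earlier results of these data known. Every probe carrying one of the names, or an older symbol of it, on the arrays was taken. This gave 19 probes for 9 of the 10 genes, out of 43426 probes and 25684 named genes; Smad7 was not analysed here.

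Retinas of C57Bl6 pups were examined 24 h after an injection into the vitreous of the eye. The VEGF-A, Dll4-Fc and hFc injections were given at 8 days of age. VEGF-A, the main growth factor for blood vessels, was given at 1 µg (5 arrays). Dll4-Fc, a soluble form of the Notch ligand Dll4 fused to an antibody Fc part, was given at 4 µg (4 arrays), and hFc, the human Fc part alone and the control, at 4 µg (4 arrays). VEGF Trap, a soluble decoy receptor that binds VEGF, was examined on 3 arrays, and its dose and the age at injection are not stated in the labels. The labels name no genetic change in any group. On every array the RNA of 1 retina sample, labelled with Cy3, was hybridised together with a Cy5-labelled pool of RNA from the whole experiment, and values are given as log2 of sample over pool, so that 0 is the level of the pool and 1 unit is a doubling. The labels do not say whether the samples of a group came from separate animals, so p-values measure the spread between these samples only.

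TGF-beta ligands bind type II receptors, which activate type I receptors that phosphorylate Smad proteins. In endothelial cells Acvrl1 (ALK1) is a type I receptor and Eng (endoglin) its co-receptor; both pass on BMP9 and BMP10 signals to Smad1 and Smad5, and loss of either gene in people causes the vascular malformations of hereditary haemorrhagic telangiectasia. Smad6 and Smad7 damp the pathway, and the Id proteins, which block basic helix-loop-helix transcription factors, are classical targets of BMP-activated Smads.

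The probes are 60 bases long. The first 30 bases of the probes that carry the results on Tgfb1, Eng, Acvrl1, Smad6, Id2 and Id3 are shown because probes of 1 gene were read side by side, and what they share decides whether they are separate measurements.
Tgfb1 A_66_P120893: ctactacgtgggtcgcaagcccaaggtgga
Tgfb1 A_66_P135688: aaaccaaagacatctcacacagtatatata
Eng A_51_P268563: gggattacagaaagacacggcactgccggt
Eng A_66_P133934: gaaaccagtgcccctctgggttgtatggga
Acvrl1 A_66_P113022: tgtgtgtgcctgctcagcttggctcccagc
Acvrl1 A_52_P279329: agacggagatctacaacacagttctgctta
Smad6 A_51_P427926: acagtgtgcgcatcagcttcgccaagggct
Id2 A_52_P240542: tgagtgaaccttgtggactctttaattaga
Id3 A_51_P380178: tccgcatctcccgatccagacagctgagct
Acvrl1 A_66_P113022 and A_51_P454736 have the same 60 bases, so their values are repeat measurements of 1 sequence. Smad6 A_66_P108888 shares 46 bases with A_51_P427926, and Tgfb1 A_51_P390715 shares 48 bases with A_66_P120893. All 3 Id1 probes overlap, with 30 bases common to all of them. The 2 Eng, the 2 Id2 and the 2 Id3 probes share no run of 12 bases or more.

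Some facts of the arrays touch these genes. Slide 1 carried the hFc samples and slide 2 the Dll4-Fc samples, while VEGF-A 1 and 2 and VEGF Trap 1 and 2 lay on slide 3 and VEGF-A 3 to 5 and VEGF Trap 3 on slide 4. Slide and treatment therefore cannot be told apart in any comparison with hFc or Dll4-Fc, whereas VEGF-A and VEGF Trap could be compared within slides. The titles carry a code whose meaning is not stated; hFc 1 and hFc 2 share its first part, as do VEGF-A 4 and VEGF Trap 3. The scanner software marked 2350 to 2599 spots as outliers on each hFc array, against 12 to 213 on the other arrays, mostly in 159 of the 532 rows of the array. In all, 7 member probes lie in those rows, and marked spots were left out: Tgfb1 A_51_P390715 and Bmp4 kept 1 hFc array, Eng A_51_P268563 kept 2, and Eng A_66_P133934 and Id1 A_51_P385781 kept none. Where 1 hFc array was left, limma takes its spread from the other groups and the lone array is assumed to vary like them, so such a difference is a comparison with that array and not with hFc retinas. On VEGF-A 2 the Id2 A_51_P219074 spot was left out. The lowest correlation between any 2 arrays, over all probes, was -0.25 (Dll4-Fc 3 with VEGF-A 2).

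Tgfb1, a secreted ligand made by many cell types, showed the largest differences among the member probes that passed the test. Its probe A_66_P120893, measured on all 16 arrays, read 1.13, 1.13, 1.22, 1.18 and 1.19 in VEGF-A retinas, -0.25, -0.29, -0.35 and -0.52 in Dll4-Fc retinas, -1.82, -1.24 and -1.64 in VEGF Trap retinas, and -0.72, -0.97, -0.96 and -0.58 in hFc retinas. On this probe the 4 groups did not overlap, and VEGF-A stood highest, then Dll4-Fc, then hFc, with VEGF Trap lowest. The VEGF-A arrays were also the closest to each other on this probe (SD 0.040, n = 5). On A_66_P135688 they were not, with an SD of 0.16 against 0.11 in VEGF Trap retinas.

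Against hFc, Tgfb1 rose 3.93-fold after VEGF-A (log2 difference 1.98 ± 0.11 SE, limma adjusted p 9.92e-09, n = 5 and 4). After Dll4-Fc it was 0.45 ± 0.12 higher (adjusted p 0.0421, limma, n = 4 and 4), and after VEGF Trap it fell by 0.76 on the log2 scale (SE 0.13, adjusted p 0.00695, limma, n = 3 and 4). These 3 differences share the hFc arrays. The probe A_66_P135688, which shares no run of 12 or more bases with the first, gave 2.52 ± 0.11 after VEGF-A (adjusted p 8.74e-10), 0.53 ± 0.12 after Dll4-Fc (adjusted p 0.0165) and -0.59 ± 0.13 after VEGF Trap (adjusted p 0.0253), all by limma. Tgfb1 A_51_P390715 had 1 unmarked hFc array, hFc 4 at -0.47, which lay within the Dll4-Fc range of -0.55 to -0.21. Against that array the differences were 1.68 after VEGF-A, 0.12 after Dll4-Fc and -1.10 after VEGF Trap. The marked spots on hFc 1 to 3 read -0.98, -1.05 and -1.14; with them kept the differences were 2.12, 0.56 and -0.66 (limma adjusted p 1.91e-08, 0.0274 and 0.0293).

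The 2 Dll4-Fc calls of Tgfb1 were weak. For A_66_P120893 the adjusted p rose to between 0.0608 and 0.14 when any one of hFc 1, hFc 2, hFc 3, Dll4-Fc 1, Dll4-Fc 2 or Dll4-Fc 3 was left out, with differences of 0.40 to 0.48. For A_66_P135688 it rose to 0.0524 to 0.0611 without Dll4-Fc 4, hFc 1 or hFc 2, where the differences were 0.45 to 0.48. With hFc 1 and hFc 2, which share a title code, averaged to 1 sample, neither call held (adjusted p 0.0851 and 0.0578). With the Cy3 signal alone, without the pool, the 2 differences were 0.33 and 0.10 (adjusted p 0.116 and 0.632). With another background and dye normalization, normexp and loess, they were 0.31 and 0.46 (limma adjusted p 0.185 and 0.0964). The VEGF Trap call of A_66_P135688 was likewise lost without VEGF Trap 1, 2 or 3, hFc 3 or hFc 4 (adjusted p 0.0512 to 0.0934). It was also lost with normexp and loess (-0.38, limma adjusted p 0.155). With the VEGF Trap arrays of 1 slide only, none of the 3 Tgfb1 probes passed the test against hFc (differences -1.17 to -0.53, adjusted p 0.0564 to 0.203).

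Eng, the endothelial co-receptor, followed the same order between VEGF-A and VEGF Trap. The probe A_66_P133934 read 1.11, 1.02, 1.07, 1.07 and 0.96 in VEGF-A retinas, -0.29, -0.08, -0.31 and -0.26 in Dll4-Fc retinas, and -1.39, -1.18 and -1.32 in VEGF Trap retinas. On the probe A_51_P268563 the values were 1.03, 1.01, 1.17, 0.92 and 0.94 in VEGF-A retinas, -0.24, -0.17, -0.34 and -0.05 in Dll4-Fc retinas, -1.30, -0.95 and -1.49 in VEGF Trap retinas, and -0.11 and -0.36 on hFc 1 and hFc 3, the hFc arrays whose spot was not marked. On both probes VEGF-A lay above and VEGF Trap below all other arrays with an unmarked spot, and on A_51_P268563 the Dll4-Fc values overlapped those of hFc.

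Against those 2 hFc arrays, Eng A_51_P268563 rose 2.37-fold after VEGF-A (log2 difference 1.25 ± 0.14, limma adjusted p 4.75e-05, n = 5 and 2) and fell by 1.01 after VEGF Trap (SE 0.15, adjusted p 0.00576, limma, n = 3 and 2). The Dll4-Fc difference was 0.03 with a 95% interval of -0.28 to 0.35 (adjusted p 0.96, limma). With marked spots kept, A_66_P133934 read between -0.62 and -0.50 on the 4 hFc arrays, below every Dll4-Fc array, and it then differed from hFc by 1.61 after VEGF-A, 0.33 after Dll4-Fc and -0.73 after VEGF Trap (limma adjusted p 4.92e-10, 0.0143 and 0.000262). The Dll4-Fc call of Eng therefore exists only on this probe with those spots included; on A_51_P268563 with marked spots kept the difference was 0.29 (adjusted p 0.44, limma).

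**Figure D1:**
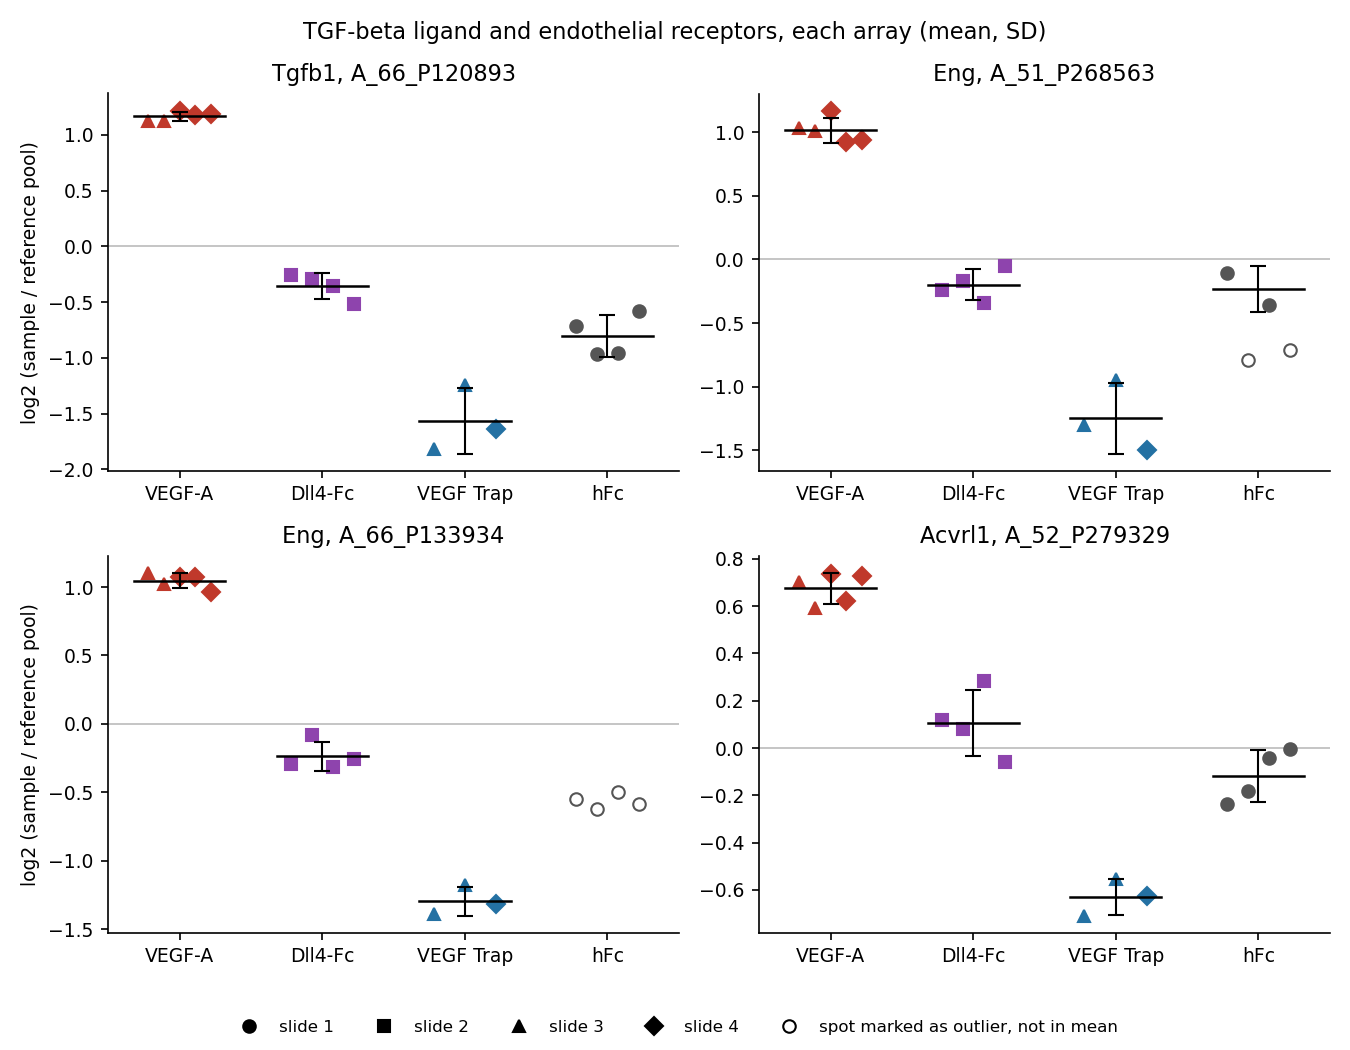
Log2 of sample over reference pool (vertical axes) for 1 Tgfb1, 2 Eng and 1 Acvrl1 probe on every array of the VEGF-A, Dll4-Fc, VEGF Trap and hFc groups; bars give mean and SD, symbols the slide, and open symbols spots marked as outliers. VEGF-A arrays stand above all other arrays and VEGF Trap arrays below all others in each panel.

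Acvrl1, the type I receptor of endothelial cells, moved in the same directions by less. On A_52_P279329 it read 0.70, 0.59, 0.74, 0.62 and 0.73 in VEGF-A retinas, 0.12, 0.08, 0.28 and -0.06 in Dll4-Fc retinas, -0.71, -0.55 and -0.63 in VEGF Trap retinas, and -0.24, -0.18, -0.04 and -0.01 in hFc retinas. VEGF-A lay highest and VEGF Trap lowest with no overlap, and Dll4-Fc 4 lay within the hFc range. The shared sequence of A_66_P113022 and A_51_P454736 read 0.46 to 0.75 and 0.39 to 0.76 in VEGF-A retinas, 0.06 to 0.32 and 0.12 to 0.33 in Dll4-Fc retinas, -0.59 to -0.41 and -0.65 to -0.41 in VEGF Trap retinas, and -0.27 to -0.11 and -0.24 to -0.08 in hFc retinas. Here all 4 groups were apart.

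All 3 Acvrl1 probes rose after VEGF-A, by 0.77 to 0.79 on the log2 scale (1.70- to 1.73-fold, limma adjusted p 4.5e-06 to 1.22e-05). After Dll4-Fc the 2 probes of the shared sequence rose by 0.36 ± 0.08 and 0.40 ± 0.09 (limma adjusted p 0.021 and 0.0185), and A_52_P279329 was 0.22 higher (adjusted p 0.21). Both Dll4-Fc calls were lost without Dll4-Fc 2, Dll4-Fc 3, hFc 3 or hFc 4 (adjusted p 0.0573 to 0.0684), and were 0.06 and 0.08 with the Cy3 signal alone (limma adjusted p 0.779 and 0.72). With normexp and loess A_66_P113022 did not pass (0.30, limma adjusted p 0.0542), while A_52_P279329 did (0.34, adjusted p 0.0195). The VEGF-A rise was also smaller on every probe with the Cy3 signal alone, at 0.37, 0.41 and 0.30 on A_66_P113022, A_51_P454736 and A_52_P279329 (adjusted p 0.0407, 0.0312 and 0.0635). After VEGF Trap only A_52_P279329 passed the test, with -0.51 ± 0.09 (limma adjusted p 0.0084), and without VEGF Trap 1 its adjusted p was 0.0596; the other probes gave -0.32 and -0.38 (adjusted p 0.0714 and 0.0542). With the Cy3 signal alone these were -0.87 and -0.88 (limma adjusted p 0.00175 and 0.00206), and both also passed with normexp and loess (0.0205 and 0.0312). A_51_P454736 passed as well with the series matrix (0.0466), with slide as a random block (0.0465), with 2 stricter probe filters (0.049 and 0.0462) and without VEGF Trap 2 (0.0445). With VEGF Trap 3 alone, on slide 4, A_52_P279329 did not pass (adjusted p 0.196).

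Counted over the set, 9 of 17 member probes with an hFc value passed the test after VEGF-A, 7 up and 2 down, where 9.49% of all 37979 probes tested did (5.86% up and 3.63% down). After Dll4-Fc 7 of 17 did, 4 up and 3 down, with 4.27% of all probes called (2.74% up and 1.53% down). After VEGF Trap 5 of 17 did, all down, with 2.89% of all probes called (0.914% up and 1.98% down). Over the 15 member probes with 2 or more hFc arrays the counts were 8 after VEGF-A (6 up, 2 down), 7 after Dll4-Fc and 4 after VEGF Trap. With the Cy3 signal alone 3 of 17 were called after Dll4-Fc, none up and 3 down; with normexp and loess 6 were, 2 up and 4 down; without hFc 4, 2 of 16 were, both up. The medians of the member differences were 0.48, 0.03 and -0.21, beside -0.05, -0.03 and -0.02 over all probes. Since several probes read 1 gene, the counts stand for Tgfb1, Eng, Acvrl1 and Id2 after VEGF-A, Tgfb1, Acvrl1, Smad6 and Id3 after Dll4-Fc, and Tgfb1, Eng and Acvrl1 after VEGF Trap. The members were chosen with earlier results of these data known, so a share above that of all probes is not independent evidence about the set.

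**Figure D2:**
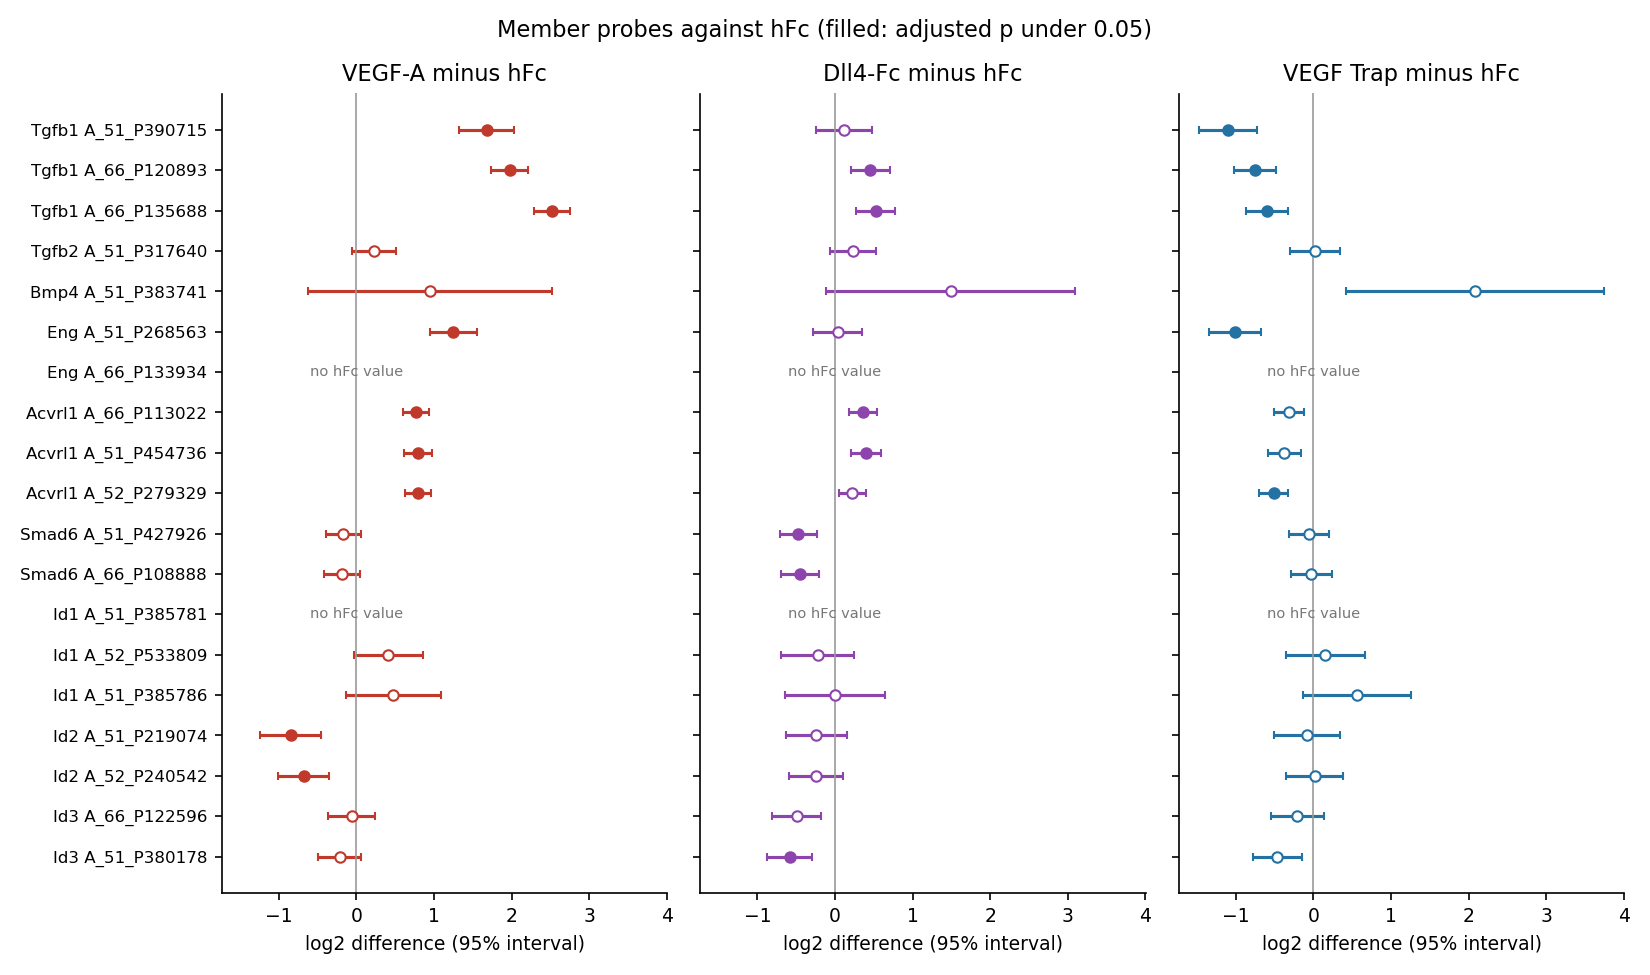
Log2 differences of the 19 member probes against hFc (horizontal axes) after VEGF-A, Dll4-Fc and VEGF Trap, with 95% intervals; filled points passed the limma test at an adjusted p of 0.05, and 2 probes have no hFc value. Tgfb1, Eng and Acvrl1 lie right of 0 after VEGF-A and left of 0 after VEGF Trap.

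Endothelial and mural cell markers also moved after VEGF-A and VEGF Trap. Of 10 endothelial markers, 6 rose and 2 fell after VEGF-A, 2 rose after Dll4-Fc, and 8 fell after VEGF Trap. Of all genes, 5.86% were called up and 4.11% down after VEGF-A, and 3.05% up and 1.58% down after Dll4-Fc. After VEGF Trap 1.06% of all genes were called up and 2.09% down. The mean log2 value of the 8 markers measured on all arrays was 0.43 to 0.48 on VEGF-A arrays and -0.18 to 0.00 on Dll4-Fc arrays. It was -0.84 to -0.71 on VEGF Trap arrays and -0.26 to -0.10 on hFc arrays. Icam2 and Pecam1, adhesion proteins of endothelial cells, rose by 1.64 and 1.31 after VEGF-A and fell by 0.88 and 0.65 after VEGF Trap, while Cldn5 and Ptprb of the same list fell by 0.34 and 0.62 after VEGF-A. Leaving out Emcn, which had 1 hFc array, 5 of 9 rose and 2 fell after VEGF-A and 7 fell after VEGF Trap. Mural markers averaged 0.47 to 0.56 on VEGF-A arrays, -0.81 to -0.57 on Dll4-Fc arrays, -1.05 to -0.85 on VEGF Trap arrays and -0.74 to -0.50 on hFc arrays, with 5 of 10 up and 2 down (Kcnj8 and Abcc9) after VEGF-A and 4 down after VEGF Trap. After Dll4-Fc no mural marker was called in either direction, with a median difference of -0.04. All 10 markers of each list had a Cy3 signal well above background on 3 or more arrays. Of 8 rod markers, checked for the tissue, 7 did. In whole retina, a change in the number of vessel cells and a change in RNA per cell cannot be told apart, and the part of these markers in the Tgfb1, Eng and Acvrl1 results was not tested.

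VEGF-A and VEGF Trap, which raise and lower VEGF signalling, could be compared within slides. In this comparison 10 of 19 member probes passed the test, 8 up and 2 down in VEGF-A retinas, where 17.0% of all probes did (9.83% up and 7.12% down); the member median was 0.26, beside -0.04 over all probes. Tgfb1 was higher in VEGF-A retinas by 2.73 to 3.12 (6.66- to 8.67-fold) on its 3 probes, Eng by 2.26 and 2.34, and Acvrl1 by 1.09 to 1.31, with limma adjusted p between 1.69e-10 and 3.43e-07.

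On slide 3 alone the difference was 2.66 to 3.01 for the Tgfb1 probes, 2.14 and 2.35 for Eng and 0.98 to 1.28 for Acvrl1. On slide 4, with 1 VEGF Trap array, it was 2.84 to 3.27 for Tgfb1, 2.50 and 2.35 for Eng and 1.17 to 1.32 for Acvrl1. The 2 slides thus gave the same direction for each of these 8 probes. With slide as a block the 8 differences had adjusted p between 8.53e-06 and 0.000705 (limma). Smad6 had opposite signs on the 2 slides, 0.08 and 0.04 on slide 3 and -0.25 and -0.34 on slide 4.

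**Figure D3:**
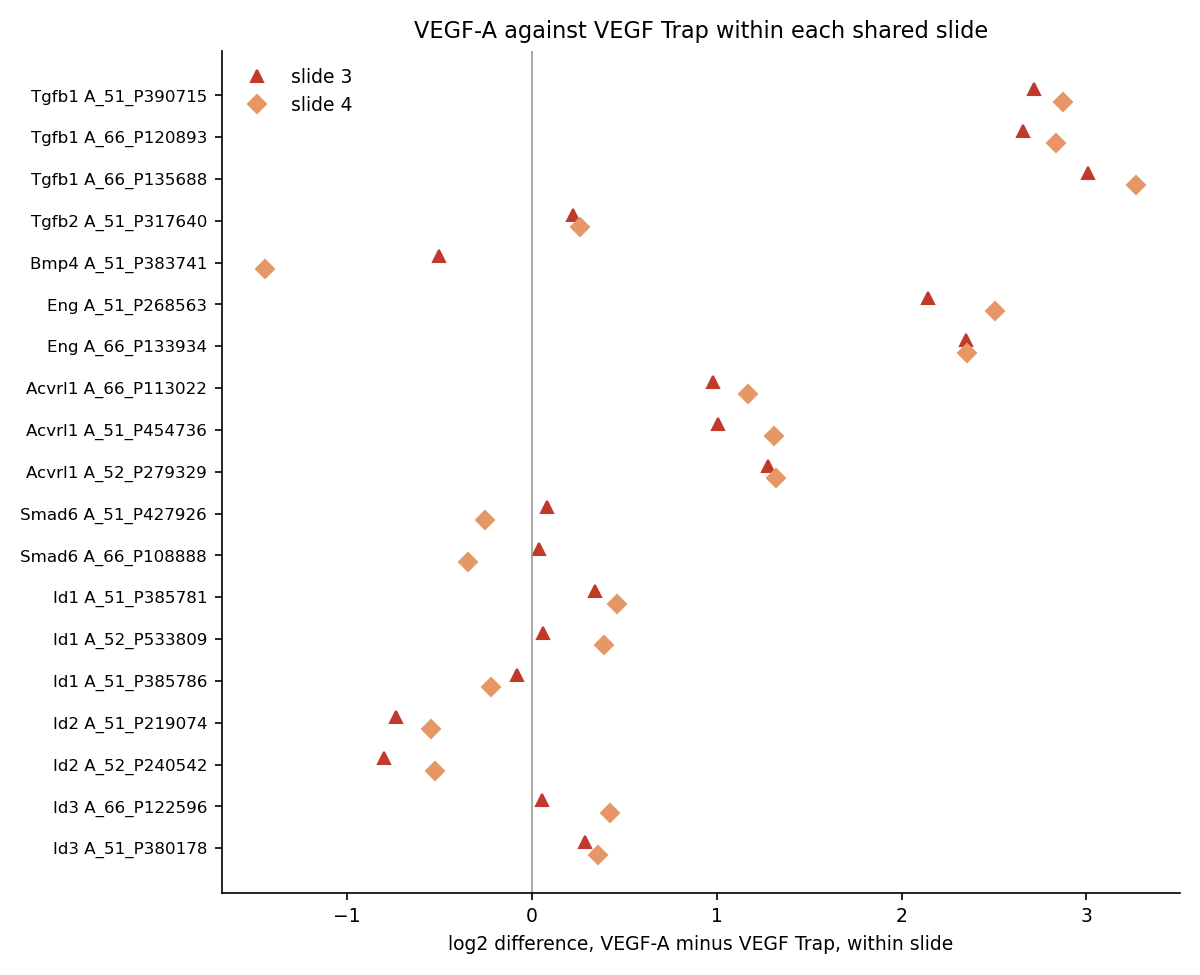
Log2 difference of VEGF-A minus VEGF Trap (horizontal axis) for the 19 member probes (vertical axis), computed within slide 3 (2 arrays of each, but 1 VEGF-A array for Id2 A_51_P219074) and within slide 4 (3 VEGF-A arrays and 1 VEGF Trap array). Tgfb1, Eng and Acvrl1 lie right of 0 and Id2 left of 0 on both slides.

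Id2 was the member that fell after VEGF-A. On A_52_P240542 it read -0.49, -0.44, -0.19, -0.49 and -0.62 in VEGF-A retinas, -0.20, -0.20, -0.18 and 0.54 in Dll4-Fc retinas, 0.12, 0.55 and 0.09 in VEGF Trap retinas, and 0.37, 0.19, 0.24 and 0.15 in hFc retinas. Every VEGF-A array lay below every hFc and VEGF Trap array, and Dll4-Fc 4 stood far above the other Dll4-Fc arrays. On A_51_P219074 the 4 VEGF-A arrays with a value read -0.93 to -0.44, the Dll4-Fc arrays -0.24 to 0.42, the VEGF Trap arrays -0.12 to 0.66 and the hFc arrays 0.15 to 0.41.

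Against hFc, Id2 fell by 0.68 (SE 0.15, adjusted p 0.00906) and by 0.85 (SE 0.18, adjusted p 0.00877) on the 2 probes after VEGF-A (limma). Restricted to slide 3 for VEGF-A, the differences were -0.70 and -0.68 (adjusted p 0.0564 and 0.19), and restricted to slide 4 A_52_P240542 had -0.67 (adjusted p 0.0603). Against VEGF Trap it fell by 0.70 and 0.77 in VEGF-A retinas (limma adjusted p 0.00919 and 0.0175), and both calls were lost without VEGF Trap 2, the array with the highest value (adjusted p 0.0544 and 0.0742). Within slides the differences were -0.80 and -0.73 on slide 3 and -0.52 and -0.55 on slide 4; with slide as a block -0.68 kept an adjusted p of 0.0279 and -0.63 had 0.143 (limma). The Müller glia markers Aqp4 and Glul fell by 1.79 and 1.53 after VEGF-A, while Vim and Slc1a3 of the same list rose by 1.89 and 0.81; their part in the Id2 result was not tested.

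Smad6, an inhibitor of BMP receptor signalling, fell after Dll4-Fc. A_51_P427926 read 0.34, 0.16, 0.11, -0.16 and -0.10 in VEGF-A retinas, -0.15, -0.14, -0.32 and -0.33 in Dll4-Fc retinas, 0.09, 0.24 and 0.21 in VEGF Trap retinas, and 0.21, 0.15, 0.11 and 0.48 in hFc retinas. All Dll4-Fc arrays were below all hFc and VEGF Trap arrays, and the VEGF-A arrays spanned both. The difference from hFc was -0.47 ± 0.11 after Dll4-Fc (adjusted p 0.0238, limma), and -0.46 ± 0.11 on the overlapping probe A_66_P108888 (adjusted p 0.0346, limma).

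The hFc 4 array, the highest for Smad6, bore on the size: without it the differences were -0.39 and -0.36 (limma adjusted p 0.0776 and 0.105). The call of A_51_P427926 was also lost without Dll4-Fc 3 or Dll4-Fc 4, and that of A_66_P108888 without Dll4-Fc 2, 3 or 4, hFc 1 or hFc 2 (adjusted p 0.0522 to 0.103), and with hFc 1 and hFc 2 averaged (0.0551). After VEGF-A Smad6 differed from hFc by -0.17 and -0.19 with 95% intervals of -0.39 to 0.06 and -0.42 to 0.04 (limma adjusted p 0.38 and 0.325). After VEGF Trap it differed by -0.06 and -0.03 (adjusted p 0.827 and 0.916). With the Cy3 signal alone all 4 of these passed, at -0.62 and -0.62 after VEGF-A and -0.48 and -0.53 after VEGF Trap.

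Id3, a target gene of BMP-activated Smads, also lay lower after Dll4-Fc. On A_51_P380178 it read 0.34, 0.17, 0.07, 0.05 and -0.10 in VEGF-A retinas, -0.11, -0.26, -0.29 and -0.38 in Dll4-Fc retinas, -0.38, 0.30 and -0.35 in VEGF Trap retinas, and 0.32, 0.30, 0.27 and 0.41 in hFc retinas. Dll4-Fc and hFc did not overlap, and VEGF Trap 2 stood with hFc while VEGF Trap 1 and 3 stood with Dll4-Fc. The Dll4-Fc difference was -0.58 ± 0.14 (limma adjusted p 0.0211); it was lost without Dll4-Fc 3, Dll4-Fc 4 or hFc 4 (adjusted p 0.0598 to 0.0629).

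The brighter Id3 probe A_66_P122596 gave -0.49 ± 0.15 after Dll4-Fc, which did not pass the test (limma adjusted p 0.0869). It passed without Dll4-Fc 4 (-0.60, limma adjusted p 0.0346) and with normexp and loess (-0.58, limma adjusted p 0.0246). After VEGF Trap the Id3 differences were -0.47 on A_51_P380178 and -0.21 on A_66_P122596 (limma adjusted p 0.0992 and 0.488). Without VEGF Trap 2 that of A_51_P380178 was -0.69 (limma adjusted p 0.00914). It also passed with the Cy3 signal alone (-0.47, limma adjusted p 0.0374) and with normexp and loess (-0.55, limma adjusted p 0.0359). After VEGF-A the differences of the 2 probes were -0.22 and -0.06 (limma adjusted p 0.342 and 0.837).

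Müller glia and microglia markers moved in the Dll4-Fc retinas in which Smad6 and Id3 were low. Of 10 Müller glia markers 7 fell against hFc, among them Abca8a by 3.63 and Rlbp1 by 1.11. The mean of the 9 measured on all arrays was -1.26 to -0.58 on Dll4-Fc arrays and -0.02 to 0.05 on hFc arrays. All 9 of the microglia and macrophage markers with an hFc value rose. The mean of the 7 measured on all arrays was 0.44 to 0.89 on Dll4-Fc arrays and -0.50 to -0.29 on hFc arrays. Of all genes, 3.05% were called up and 1.58% down after Dll4-Fc. Over the genes with 2 or more hFc arrays, 6 of 9 Müller glia markers fell and 8 of 8 microglia and macrophage markers rose. The part of these cells in the Smad6, Id3, Tgfb1 and Acvrl1 results was not tested.

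**Figure D4:**
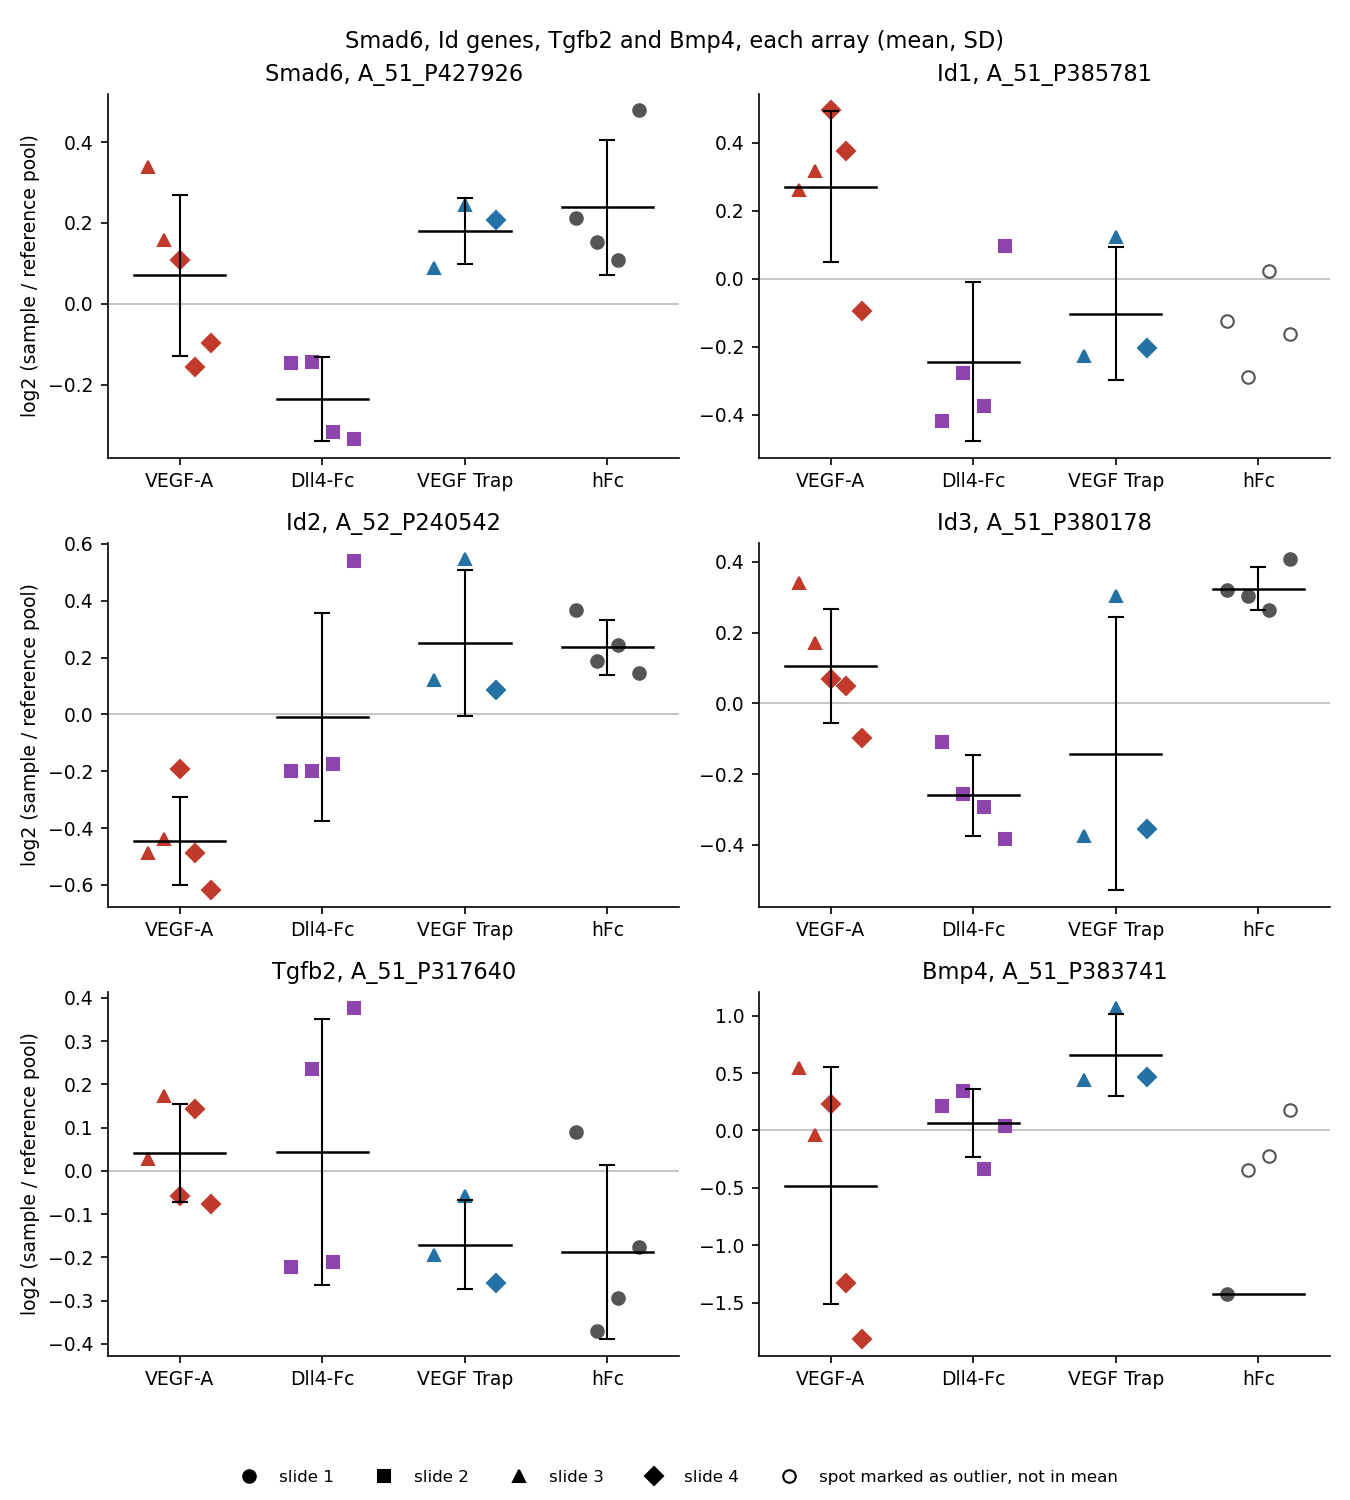
Log2 of sample over reference pool (vertical axes) for 1 probe each of Smad6, Id1, Id2, Id3, Tgfb2 and Bmp4 on every array of the VEGF-A, Dll4-Fc, VEGF Trap and hFc groups; bars give mean and SD, symbols the slide, and open symbols spots marked as outliers. Id2 is lower on VEGF-A than on hFc and VEGF Trap arrays, Smad6 and Id3 are lower on Dll4-Fc than on hFc arrays, and Bmp4 spreads most within VEGF-A.

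Id1, the third Id gene, was measured brightly only by A_51_P385781, for which every hFc spot was marked. It read 0.26, 0.32, 0.50, 0.38 and -0.09 in VEGF-A retinas, -0.42, -0.28, -0.37 and 0.10 in Dll4-Fc retinas, and -0.23, 0.12 and -0.20 in VEGF Trap retinas. VEGF-A 5 was the lowest of its group and Dll4-Fc 4 the highest of its own, so the groups overlapped. With marked spots kept, the hFc arrays read -0.12, -0.29, 0.02 and -0.16, and no comparison with hFc passed the test; the VEGF-A difference was then 0.41 (limma adjusted p 0.0692). The other Id1 probes were dim, with mean Cy3 signals of 15.5 and 9.67 against 1375 for A_51_P385781, and were not called in any comparison.

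Tgfb2, a second TGF-beta ligand, differed from hFc by at most 0.23 on average in the 3 treated groups, and no difference passed the test. It read 0.03, 0.17, -0.06, 0.14 and -0.08 in VEGF-A retinas, -0.22, 0.24, -0.21 and 0.38 in Dll4-Fc retinas, -0.19, -0.06 and -0.26 in VEGF Trap retinas, and 0.09, -0.37, -0.29 and -0.18 in hFc retinas. All groups overlapped. The differences from hFc were 0.23 after VEGF-A (95% interval -0.05 to 0.51), 0.23 after Dll4-Fc (-0.06 to 0.53) and 0.02 after VEGF Trap (-0.30 to 0.34), with limma adjusted p of 0.327, 0.55 and 0.964.

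Bmp4, a BMP ligand, spread widely among VEGF-A retinas, at 0.55, -0.04, 0.23, -1.33 and -1.82. It read 0.21, 0.34, -0.33 and 0.03 in Dll4-Fc retinas, 0.44, 1.07 and 0.47 in VEGF Trap retinas, and -1.43 on hFc 1, the 1 hFc array whose spot was not marked. The marked spots on hFc 2 to 4 read -0.34, -0.23 and 0.18, so hFc 1 lay far below the other hFc arrays. VEGF-A 4 and 5 and hFc 1 were low and the VEGF Trap arrays high. VEGF-A minus hFc was 0.95 against hFc 1 alone and -0.03 with the marked spots kept (limma adjusted p 0.487 and 0.981). No comparison passed the test; VEGF-A minus VEGF Trap was -1.14 ± 0.48 (limma adjusted p 0.133), at -0.50 on slide 3 and -1.44 on slide 4.

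Dll4-Fc retinas were also set against the other treated groups, which lie on other slides. Against VEGF-A, 10 of 19 member probes passed the test, 1 up and 9 down, where 12.3% of all probes did (5.51% up and 6.81% down), and the member median was -0.43 beside 0.01. Tgfb1 fell by 1.52 to 2.00, Eng by 1.21 and 1.28 and Acvrl1 by 0.40 to 0.57 relative to VEGF-A (limma adjusted p 1.06e-08 to 0.00558). The Acvrl1 calls of A_66_P113022 and A_51_P454736 were lost with the Cy3 signal alone (adjusted p 0.147 and 0.136) and when VEGF-A was restricted to slide 3 (0.0551 and 0.131). Id1 A_51_P385781 was -0.52 ± 0.14 (adjusted p 0.0353, limma) and Id2 A_51_P219074 0.61 ± 0.18 higher (adjusted p 0.046, limma). The other Id2 probe, A_52_P240542, was 0.44 higher and did not pass the test (limma adjusted p 0.0809). The Id1 call was lost without any one of Dll4-Fc 1, 2 or 3 or VEGF-A 1, 2, 3 or 4 (adjusted p 0.0671 to 0.11), and the Id2 call without Dll4-Fc 1, 2 or 4 or any VEGF-A array (0.0524 to 0.124). Id1 was also lost with the Cy3 signal alone and with VEGF-A restricted to slide 3 or 4 (limma adjusted p 0.0935, 0.0882 and 0.181). The Id2 call was lost with arrays centred on their median (limma adjusted p 0.053). Restricted to slide 3, with 1 VEGF-A array for this probe, the Id2 difference was 0.44.

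Against VEGF Trap, again 10 of 19 passed, 8 up and 2 down, where 12.1% of all probes did (7.26% up and 4.82% down), with medians of -0.12 and -0.01. Tgfb1 was higher in Dll4-Fc retinas by 1.12 to 1.22, Eng by 1.05 and 1.06 and Acvrl1 by 0.68 to 0.77 (limma adjusted p 1.2e-05 to 0.000177). Smad6 fell by 0.42 on both probes (adjusted p 0.0374 and 0.0381, limma). Both calls were lost without Dll4-Fc 3 or 4 or any VEGF Trap array, and that of A_51_P427926 also without Dll4-Fc 1 (limma adjusted p 0.0558 to 0.134). Both were also lost with the Cy3 signal alone (limma adjusted p 0.138 and 0.19) and with VEGF Trap restricted to slide 3 (0.0676 and 0.0937). With VEGF Trap 3 alone, on slide 4, the differences were -0.44 and -0.50.

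Beyond the members, 5 further lists of pathway genes, also chosen with earlier results of these data known, were read by their brightest probe. Other processing and the leaving out of arrays were examined for the member probes only, and not for the calls of these lists. Of 15 target genes, 14 could be set against hFc, and 8 rose and none fell after VEGF-A, with a median of 1.00 beside -0.05 for all genes; of all genes 9.97% were called, 5.86% up and 4.11% down. Ccn2, a matricellular protein, rose by 2.75 ± 0.10 and Cdkn2b, a cell cycle inhibitor, by 2.51 ± 0.14 (limma adjusted p 1.41e-10 and 1.08e-08). Ccn2 ranged from 1.24 to 1.67 in VEGF-A retinas and from -1.48 to -1.16 in hFc retinas. After Dll4-Fc 3 of the 14 rose (of all genes 4.64% were called, 3.05% up and 1.58% down), among them Cdkn2b by 0.65 ± 0.15 (limma adjusted p 0.0205). Tgfbi, also among them, stood 1.80 above its 1 hFc array, and over the 12 target genes with 2 or more hFc arrays 2 rose. After VEGF Trap none of the 14 passed.

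Among 12 other ligands, Inhbb and Tgfb3 rose by 0.43 and 0.35 and Bmp5 fell by 0.69 after VEGF-A (limma adjusted p 0.00614, 0.00644 and 0.00403). After Dll4-Fc 3 fell, Inhba, an activin subunit, by 1.59, Bmp3 by 1.45 and Bmp5 by 0.68 (limma adjusted p 0.000283, 1.41e-06 and 0.0122). Of 11 further receptors and co-receptors with an hFc value, 3 fell after VEGF-A: Bmpr1b by 0.87, Rgmb by 0.31 (limma adjusted p 0.0114 and 0.016) and Tgfbr2, the type II receptor of TGF-beta. The Tgfbr2 value, -0.52, is against 1 hFc array; over the 10 receptors with 2 or more hFc arrays 2 fell. None of the 6 other Smad genes passed against hFc in any treatment.

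Of 19 inhibitors and matrix regulators tested, 3 rose and 3 fell after VEGF-A. Thbs1, which activates latent TGF-beta, ranged from 0.85 to 1.46 in VEGF-A retinas and from -1.63 to -0.64 in hFc retinas. Ltbp4, which anchors latent TGF-beta in the matrix, rose by 0.54, and Nog, a secreted BMP antagonist, fell by 0.62 (limma adjusted p 1.4e-05 for Thbs1, 0.00148 for Ltbp4 and 5.7e-05 for Nog). Nog was instead higher after Dll4-Fc, by 0.58 (adjusted p 0.000437), with 0.52 to 0.70 in Dll4-Fc retinas and -0.07 to 0.11 in hFc retinas; Tgif1 rose by 0.37 and the BMP antagonist Chrdl1 fell by 0.53 (limma adjusted p 0.0307 and 0.0299). After VEGF Trap no gene of the 5 lists passed the test against hFc, where 3.15% of all genes did (1.06% up and 2.09% down).

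**Figure D5:**
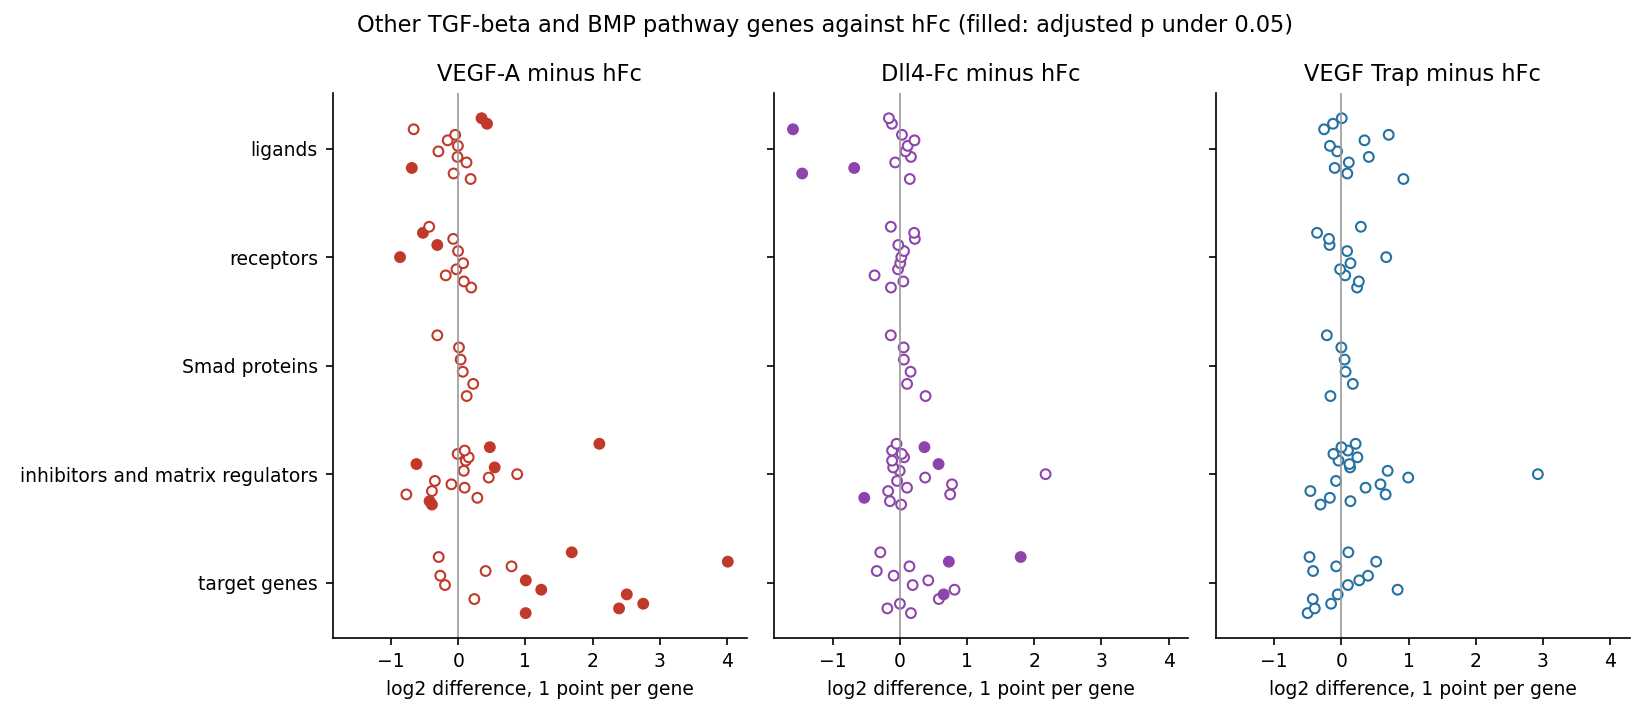
Log2 differences against hFc (horizontal axes) of the other TGF-beta and BMP pathway genes, 1 point per gene at its brightest probe, in 5 lists (vertical axis) after VEGF-A, Dll4-Fc and VEGF Trap; filled points passed the limma test at an adjusted p of 0.05. The filled target genes after VEGF-A all lie right of 0, and no point is filled after VEGF Trap.

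As a description, the genes whose log2 values ran most like each member over the arrays with a value for that member were listed. They came from 14906 or 14907 genes measured on all 16 arrays, those named by the file's name alone left out. Tgfb1 was most like Tmem204 and Nos2 (Pearson r 0.996 and 0.994, 13 arrays), Eng like Ttk and Pprc1 (0.993 and 0.984, 14 arrays) and Acvrl1 like Depdc1b and Eef1akmt4 (0.985 and 0.985, 16 arrays). Smad6 ran most like Arhgef19 and Lama1 (0.937 and 0.918), Id3 like Fxyd1 and Prdx6 (0.899 and 0.875), both over 16 arrays, and Id2 like Aqp4 and Spock2 (0.900 and 0.880, 15 arrays). For Id1 the first were Uros and Tmem109 (0.962 and 0.960, 12 arrays), for Bmp4 Mapk13 and P2rx6 (0.994 and 0.983, 13 arrays) and for Tgfb2 Plekho1 and Sde2 (0.891 and 0.854, 16 arrays). These arrays share 4 treatments and a reference pool, so such values follow the group means.

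The promoters of 2 members that rose after VEGF-A and of 2 that were lower after Dll4-Fc are shown because each pair changed in the same direction in that comparison. Each is the 250 bases before the RefSeq start in GRCm38.p6, at chr7:25686752-25687001 (plus strand) for Tgfb1, chr2:32646345-32646594 (plus strand) for Eng, chr9:64022060-64022309 (minus strand) for Smad6 and chr4:136143572-136143821 (plus strand) for Id3, with matches to GGCGNC, a GC-rich Smad site, on either strand in capitals.
Tgfb1 promoter: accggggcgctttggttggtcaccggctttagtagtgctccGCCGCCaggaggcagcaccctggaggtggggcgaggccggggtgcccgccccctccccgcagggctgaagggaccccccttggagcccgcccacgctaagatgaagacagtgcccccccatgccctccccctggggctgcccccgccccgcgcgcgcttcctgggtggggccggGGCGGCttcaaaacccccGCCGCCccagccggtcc
Eng promoter: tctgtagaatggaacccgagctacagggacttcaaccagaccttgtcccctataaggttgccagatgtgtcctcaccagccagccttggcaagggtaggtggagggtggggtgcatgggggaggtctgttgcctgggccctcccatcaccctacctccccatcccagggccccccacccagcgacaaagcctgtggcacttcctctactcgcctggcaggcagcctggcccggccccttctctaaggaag
Smad6 promoter: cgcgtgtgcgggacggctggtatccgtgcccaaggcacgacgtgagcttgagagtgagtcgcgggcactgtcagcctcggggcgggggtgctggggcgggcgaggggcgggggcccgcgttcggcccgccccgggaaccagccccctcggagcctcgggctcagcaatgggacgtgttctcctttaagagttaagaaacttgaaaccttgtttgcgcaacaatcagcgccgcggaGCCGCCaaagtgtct
Id3 promoter: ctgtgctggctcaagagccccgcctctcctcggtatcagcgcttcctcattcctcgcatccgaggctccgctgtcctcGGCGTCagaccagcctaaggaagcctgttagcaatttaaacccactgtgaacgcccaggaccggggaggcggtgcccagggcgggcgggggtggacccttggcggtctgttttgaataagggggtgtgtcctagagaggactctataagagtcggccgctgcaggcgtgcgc
GGCGNC occurs in 30.7% of the 32851 windows of this kind, 3 times for Tgfb1 (starting at -209, -35 and -17), once each for Smad6 (-15) and Id3 (-172), and not for Eng. The 4-base Smad element GTCT, counted on both strands, is in 82.9% of windows and was found once for Tgfb1 and Smad6, and 2 times for Eng and Id3. The palindrome GTCTAGAC, in 0.167% of windows, was in none of the 7 member windows, and GGCGCC, in 9.59% of windows and itself a form of GGCGNC, was in that of Id2 alone. The matches describe these letters only.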

How the data were processed

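Two-colour Agilent arrays were deposited as scanner tables of intensity values and of a log10 ratio of Cy5 over Cy3 per spot, which the authors made with Agilent Feature Extraction 9.5.1.1, per the file headers and the submitters' processing notes. The deposited series matrix holds natural log ratios of the same arrays (Pearson r with the scanner ratios from 0.999) and served as an alternative. The log10 ratio was turned into log2 of sample (Cy3) over reference pool (Cy5). Control spots, spots marked as outliers and ratios of exactly 0 (7.27% to 12.5% of spots per array) were left out, and spots of a probe were averaged.

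Probes whose Cy3 signal stood well above background on 3 or more arrays were kept (39788 of 43426); this was so for 84.9% to 91.0% of spots per array. One limma 3.58.1 model (R 4.3.3) over the 4 groups gave 6 comparisons, each with Benjamini-Hochberg adjustment over all probes and a threshold of 0.05. Precision is limited by the number of arrays: the median standard error of a difference was 0.13 to 0.15 over comparisons. On simulated data 68% to 79% of changes of 1 log2 unit and 26% to 32% of 0.5 were recovered in the 4 comparisons simulated, with 4.67% to 8.04% of calls false. Genes were named by accession (26256 probes), symbol (6855), older symbol (3157) or the file's name alone (7158). Where several probes read a pathway or marker gene, the one with the highest mean Cy3 signal was taken; from each pathway list at most the 3 genes with the lowest p per comparison are named, and 1 gene is not reported here. Replicate numbers follow accession order only. Members and lists were chosen with earlier results of these data known. Alternatives covered the outlier spots, background and dye normalization, centring, dim probes, slide, the series matrix, Cy3 alone, hFc 1 and hFc 2 (whose titles share a code of unstated meaning) as 1 sample, and leaving out each array.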

Additional observations from a re-analysis of the deposited data

Results flagged for a closer look

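Among 52 probe and group sets of 4 or 5 arrays, 3 held 1 array set far apart from the rest by Dixon's ratio at its 95% value; chance sets apart about 1 in 20, or 2.6 of 52. Smad6 A_66_P108888 read 0.54 on hFc 4, against 0.14 to 0.19 on the other hFc arrays. Id2 A_52_P240542 read 0.54 on Dll4-Fc 4, against -0.20 to -0.18 on the other Dll4-Fc arrays; without it the Id2 difference of Dll4-Fc minus VEGF Trap was -0.44 (limma adjusted p 0.0391). Id3 A_66_P122596 read -0.15 on VEGF-A 5, against 0.12 to 0.23 on the other VEGF-A arrays.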

How the results depend on the processing

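Of 51 member results that passed the test, 29 did so under every alternative run, 22 were lost under at least 1 and none reversed; 18 of 57 that did not pass did so under at least 1. The count of member probes called in Dll4-Fc minus hFc was 7, and became 3 with Cy3 alone (none up), 4 with hFc 1 and hFc 2 averaged, and 1 to 6 without 1 array. In VEGF Trap minus hFc it was 5, and became 10 with Cy3 alone, 3 of 12 probes with the rows rich in outlier spots left out, 3 with slide 3 only (1 up), 1 with slide 4 only, and 3 to 6 without 1 array. With those rows left out, 6 of 12 were called in VEGF-A minus VEGF Trap, 5 in Dll4-Fc minus VEGF-A and 6 in Dll4-Fc minus VEGF Trap. Without 1 array the counts were 8 to 9 in VEGF-A minus hFc, 9 to 11 in VEGF-A minus VEGF Trap, 8 to 11 in Dll4-Fc minus VEGF-A and 8 to 10 in Dll4-Fc minus VEGF Trap. With slide 3 only, Bmp4 stood 1.68 after VEGF-A and 2.18 after VEGF Trap above its 1 unmarked hFc array, which is no comparison with the hFc group; with marked spots kept and all arrays the differences were -0.03 and 1.11 (limma adjusted p 0.981 and 0.236). The fewer probes tested lower the counts where rows were left out; for the other changes the cause was not tested. No paired analysis was possible because the replicate numbers follow accession order and the codes in the titles, parts of which recur across groups, are not said to mark shared animals, litters or days. VEGF-A 4 and VEGF Trap 3 share the first part of the code; no member call of VEGF-A minus VEGF Trap was lost when either was left out alone.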
